A study of Mus musculus with 4 samples.

Results

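The hepatic lectins examined here are the asialoglycoprotein receptor genes Asgr1 and Asgr2 and the mannose-binding lectin genes Mbl1 and Mbl2, taken as every array probe annotated to these symbols. Each of the 4 genes had 1 probe, so 4 of the 25697 probes and 4 of the 16593 named genes on the arrays belong to the set, and all 4 were among the 9502 genes tested. Whole livers of newborn mice of mixed B6;129 strain at postnatal day 1, all labelled female, were profiled on 4 Illumina bead arrays. The 2 controls are labelled wild type. The 2 double-knockout livers (DKO) carry the genotype Lats1-/-;Lats2f/fl;Alb-cre, that is, they lack Lats1 in every cell and lose Lats2 only in cells that have expressed Cre from an albumin promoter, which drives it in hepatoblasts and the cells that descend from them. Lats1 and Lats2 encode the Hippo pathway kinases that restrain YAP and TAZ. The pups came from the same pregnant mice, but no source used here ties an array to a single animal, and p-values therefore measure only the spread between these arrays.

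All 4 proteins are C-type lectins, which recognise sugars through a calcium-dependent domain. Asgr1 and Asgr2 encode the major and the minor subunit of the asialoglycoprotein (Ashwell-Morell) receptor, which sits on the sinusoidal face of hepatocytes, binds plasma glycoproteins that have lost sialic acid and expose galactose or N-acetylgalactosamine, and carries them through clathrin-coated pits to the lysosome. Mbl1 and Mbl2 encode mannose-binding lectins A and C, collectins with a collagen-like stem that the liver secretes into plasma. Bound to mannose-rich microbial surfaces, they act with the proteases of the Masp genes to start the lectin pathway of complement.

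Between 48.7% and 53.1% of probes were detected per array (detection p under 0.05). The probe for Lats2 read a normalized log2 intensity of 5.92 and 5.47 in controls and 6.54 and 6.07 in DKO livers. Whether it lies in the deleted part of the gene is not known here, so it does not check the labels. Control replicate 2 went against its label, since the Y-linked Eif2s3y read 11.31 there against 4.69 to 4.94 on the other arrays, and 1 of the Xist probes read 5.16 against 9.07 to 9.86. Values without this array are given below. In these whole livers, fewer cells of a type and less RNA per cell cannot be told apart.

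In each pair of related genes, 1 member had a large change and the other a small fitted one. Asgr1 was 41.0-fold lower in DKO livers. Mbl2 had a fitted fold of 45.1 lower, a size set in part by the detection limit because its probe was detected on only 1 of the 2 DKO arrays, whereas Asgr2 and Mbl1 had fitted values 2.0-fold and 1.50-fold lower that did not pass the threshold. Thus 2 of the 4 genes were called lower (limma adjusted p under 0.05) beside 1.68% of all genes tested, and in 3 of the 4 both DKO values lay below both control values beside 22.8% of all genes. The folds depended on the background step, and without background correction they were 16.3-fold for Asgr1 and 10.2-fold for Mbl2, both still called, and 1.37-fold for Asgr2, not called.

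**Figure D1:**
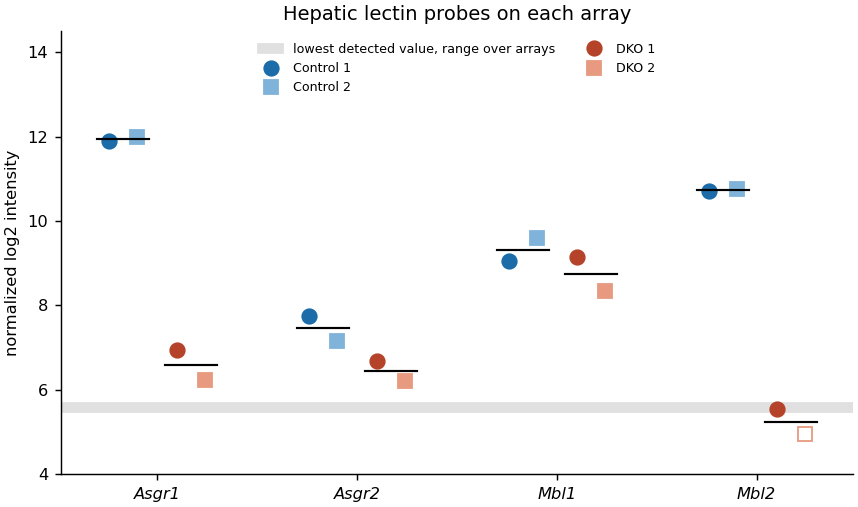
Normalized log2 intensity (vertical axis) of the Asgr1, Asgr2, Mbl1 and Mbl2 probes, 1 point per array, with black bars at the group means; an open point was not detected, and the grey band spans the lowest detected value of the 4 arrays (5.46 to 5.69). Control and DKO arrays lie far apart for Asgr1 and Mbl2, close together for Asgr2, and overlap for Mbl1.

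For Asgr1, the major subunit of the receptor, the intensity before normalization was 4320 and 3955 in the controls and 277 and 228 in the DKO livers. After background correction and normalization the log2 intensities were 11.89 and 11.99 against 6.95 and 6.22. The controls were nearly alike, both DKO arrays were far below them, and the probe stayed detected on all 4 arrays. The log2 change was -5.36 (SE 0.38, 95% interval -6.25 to -4.46, limma adjusted p = 0.0030). Controls had a mean of 11.94 ± 0.07 and DKO livers one of 6.59 ± 0.51 (SD, n = 2 each).

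For Asgr2, the subunit that joins Asgr1 in the native receptor, the intensities were 396 and 278 in controls and 256 and 227 in DKO livers, or 7.75 and 7.16 against 6.69 and 6.21 on the normalized log2 scale. The DKO arrays again lay below both controls, but the gap between the groups (0.47) was smaller than the spread of the controls (0.59). The log2 change of -1.0 (SE 0.38, 95% interval -1.90 to -0.10) had an unadjusted p of 0.034 and did not pass after adjustment (limma adjusted p = 0.27). The change was -0.45 without background correction and -0.47 from the deposited normalized intensities, neither called. Asgr2 passed only with the replicate number of the sample titles as a block (limma adjusted p = 0.037), a pairing not assumed here. Its probe had little room to fall, since the control mean of 7.45 stood only 1.91 above the mean lowest detected value of the DKO arrays (5.54), against 6.40 for Asgr1. A fall of the size seen for Asgr1 could not have been measured with the Asgr2 probe.

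Within each array, the log2 intensity of Asgr1 exceeded that of Asgr2 by 4.14 and 4.84 in controls and by 0.26 and 0.01 in DKO livers. The log2 change of Asgr1 minus that of Asgr2 was -4.35 (SE 0.37), and -3.58 without background correction. An exact permutation test over the 4 arrays gave p = 0.33 (two-sided), which is the smallest that 2 against 2 arrays allow, and adjusted p = 0.50 over the 3 such comparisons made. Only the changes are compared between the genes and not the levels, because probes of different genes differ in brightness. The Asgr2 probe had little room to fall (1.91 on the log2 scale). That limit can affect the size of this difference and its error.

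For Mbl2, which encodes mannose-binding lectin C, the intensities were 2085 and 1716 in controls and 196 and 174 in DKO livers, or 10.72 and 10.76 against 5.55 and 4.94 on the normalized log2 scale. The controls were nearly alike and far above both DKO arrays, where the probe was detected on DKO replicate 1 and not on DKO replicate 2. The signal of DKO replicate 1 stood 0.09 above the lowest detected value of its array and that of DKO replicate 2 at -0.68 relative to its own. The fitted log2 change was -5.50 (SE 0.37, 95% interval -6.35 to -4.64, limma adjusted p = 0.0030). The control mean stood 5.20 above the mean lowest detected value of the DKO arrays, so the fitted change passed what could be measured, and its size and interval rest on values at the detection limit. Without DKO replicate 1 the gene was detected on no DKO array, and on the background-corrected scale it was then at least 34.7-fold lower, the controls being set against the lowest detected value of DKO replicate 2. That bound depends on the background correction, without which the fold over all 4 arrays was 10.2.

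For Mbl1, which encodes mannose-binding lectin A, the intensities were 756 and 852 in controls and 706 and 465 in DKO livers, or 9.04 and 9.60 against 9.14 and 8.34 on the normalized log2 scale. The groups overlapped, with DKO replicate 1 above control replicate 1 and DKO replicate 2 below every other array. The log2 change of -0.58 (SE 0.42, 95% interval -1.56 to 0.39) did not pass (limma adjusted p = 0.61). Here the room to fall was ample, 3.78 on the log2 scale, and both DKO arrays stayed 2.72 to 3.68 above their lowest detected values. The interval of the change did not reach the -5.50 of Mbl2.

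The log2 change of Mbl1 minus that of Mbl2 was 4.91 (SE 0.27), and 2.90 without background correction, and the within-array difference of Mbl1 minus Mbl2 was -1.67 and -1.16 in controls and 3.59 and 3.40 in DKO livers. Since Mbl2 was at the detection limit in DKO livers, the size of this difference and its error are set in part by that limit. The exact permutation test again gave the smallest p possible, 0.33 (two-sided; adjusted p = 0.50). The mean change of the receptor genes and that of the mannose-binding lectin genes differed by -0.14 (SE 0.28; exact permutation p = 1, two-sided). Each mean averages a large and a small fitted change, and the limit on Mbl2 enters here too. The sign was not fixed, at 0.13 without control replicate 1 and -0.41 without control replicate 2.

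**Figure D2:**
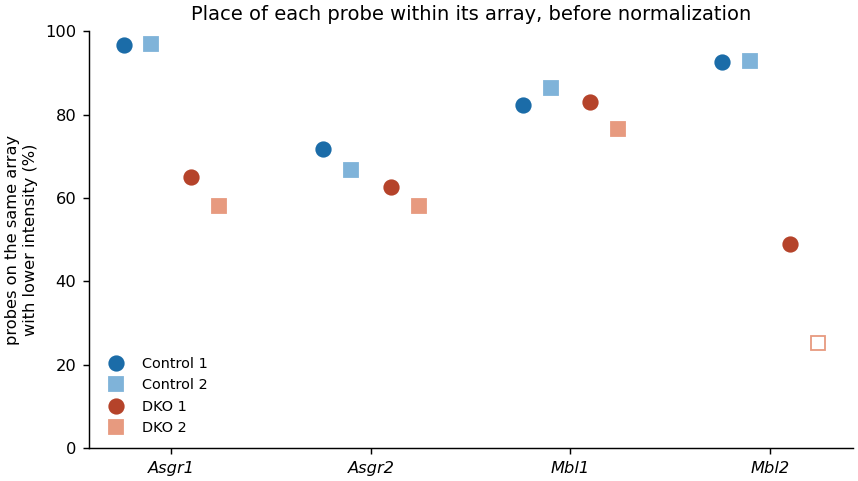
Share of the probes on the same array with a lower intensity (percent, vertical axis) for each lectin probe, from intensities before any normalization; 1 point per array, open where not detected. Asgr1 moved from 96.8% and 97.1% in controls to 64.9% and 58.1% in DKO livers and Mbl2 from 92.7% and 92.9% to 48.9% and 25.2%, whereas Mbl1 read 82.3% and 86.3% against 83.0% and 76.6%.

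Ranked within its own array by unnormalized intensity, the Asgr1 probe was brighter than 96.8% and 97.1% of probes in controls and than 64.9% and 58.1% in DKO livers. Asgr2 stood above 71.7% and 66.8% of probes in controls and above 62.6% and 58.0% in DKO livers before normalization.

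Among the 4 arrays, DKO replicate 2 gave the lowest value of every lectin gene, below DKO replicate 1 by 0.72 for Asgr1, 0.48 for Asgr2, 0.80 for Mbl1 and 0.62 for Mbl2 on the log2 scale. The controls had no common order, and control replicate 1 minus control replicate 2 was 0.59 for Asgr2, -0.56 for Mbl1, -0.10 for Asgr1 and -0.04 for Mbl2. Without control replicate 2, the array at odds with its sex label, the log2 changes were -5.30 for Asgr1, -1.30 for Asgr2, -0.31 for Mbl1 and -5.47 for Mbl2. Asgr1 and Mbl2 stayed called whichever single array was left out (limma adjusted p at most 0.024), and Asgr2 and Mbl1 stayed uncalled (adjusted p at least 0.28). The value of Mbl1 depended on single arrays, with log2 changes from -0.99 without DKO replicate 1 to -0.18 without DKO replicate 2.

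The genes with the most similar pattern were sought over the 4 arrays by the Euclidean distance between log2 intensities centred on each gene's own mean. The nearest gene to Asgr1 was Mbl2 and the nearest to Mbl2 was Asgr1, at a distance of 0.16 among 9502 genes. Both then shared the neighbours Abcg8, part of a transporter that moves sterols into bile, Cyp2c37 and Cyp2c50, cytochromes P450, and Slc27a5, a ligase of bile acid conjugation. Abcg8, Cyp2c37, Cyp2c50 and Slc27a5 had log2 changes of -5.14, -4.99, -4.97 and -5.92, all called (1.68% of all genes were called lower). Each was detected on 1 of the 2 DKO arrays, so the sizes of these falls are set in part by the detection limit. The nearest genes to Asgr2 were Abat, Nudt12, Oit3, 1300017J02Rik and Nags, at distances of 0.04 to 0.12, with log2 changes of -0.95 to -1.08 that did not pass. The nearest to Mbl1 were Cd79a, a B-cell receptor component, the formyl peptide receptor gene Fpr2, Fam241a, the protease gene Ctsk and the lysozyme gene Lyz2, at 0.06 to 0.18, with log2 changes of -0.49 to -0.65 that did not pass. All these neighbours were chosen by the same values, so changes close to the member's follow from the choice. With 4 arrays, and with small changes lying close together by construction, these distances are a description.

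The upstream sequences are shown because Mbl1 and Mbl2 share a stretch there and the Asgr windows hold 2 motifs in the same spacing. The fitted changes within each pair were unlike, although the detection limit can affect those of Asgr2 and Mbl2. RefSeq (GRCm38.p6) gave 5 start sites for the 4 genes, 2 of them for Asgr1, and which of these gives the transcript that a probe reads is not known here. The 250 bases before each start were searched on both strands for TEAD (GGAATG), HNF1 (GTTAAT), HNF4 (CAAAGT), C/EBP (TTGCGC or TTGCAC), FOXA (TGTTTA or TATTTA) and TATA box (TATAAA) letters, and matches are in capitals. No matches overlapped each other. All 4 genes lie on the plus strand.
Asgr1, second start, chr11:70054105-70054354: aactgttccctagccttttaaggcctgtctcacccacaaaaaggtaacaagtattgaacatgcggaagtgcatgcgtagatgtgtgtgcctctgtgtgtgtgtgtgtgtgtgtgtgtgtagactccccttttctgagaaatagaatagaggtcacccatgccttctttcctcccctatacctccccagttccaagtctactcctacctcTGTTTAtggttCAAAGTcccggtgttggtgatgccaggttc
Asgr2, chr11:70092394-70092643: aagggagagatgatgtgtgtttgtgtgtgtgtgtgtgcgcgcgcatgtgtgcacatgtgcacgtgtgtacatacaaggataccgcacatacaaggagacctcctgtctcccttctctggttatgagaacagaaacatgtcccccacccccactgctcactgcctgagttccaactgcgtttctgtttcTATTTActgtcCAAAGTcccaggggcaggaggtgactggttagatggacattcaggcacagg
Mbl1, chr14:41151206-41151455: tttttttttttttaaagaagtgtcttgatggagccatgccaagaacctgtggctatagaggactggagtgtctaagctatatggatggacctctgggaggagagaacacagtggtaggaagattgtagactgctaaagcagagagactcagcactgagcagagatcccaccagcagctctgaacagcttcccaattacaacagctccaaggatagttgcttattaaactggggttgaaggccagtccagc
Mbl2, chr19:30232678-30232927: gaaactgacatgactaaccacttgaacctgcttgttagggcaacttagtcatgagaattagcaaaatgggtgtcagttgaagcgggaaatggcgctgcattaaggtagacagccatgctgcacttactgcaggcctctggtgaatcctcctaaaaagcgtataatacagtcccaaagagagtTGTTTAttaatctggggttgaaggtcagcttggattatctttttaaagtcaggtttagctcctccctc

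HNF4 letters occurred before the second start of Asgr1 and before Asgr2, and FOXA letters before these and before Mbl2. The windows before Mbl1 and before the first start of Asgr1 held none of the motifs, and no window held TEAD letters. Of all 32851 RefSeq windows of the same length, 12.6% held the HNF4 letters, 12.0% and 12.7% the FOXA forms and 12.6% the TEAD letters, so single matches of this kind are common. A match is a run of letters and not a shown binding site.

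In the Asgr windows the FOXA and HNF4 letters stood in the same order and spacing. Over the 26 bases that begin at the FOXA letters, 18 were identical (in capitals), a comparison chosen after the windows had been seen. The best match of these windows, 24 of 26, was a run of TG repeats and is not shown.
Asgr1, second start, chr11:70054314-70054339: TgTTTAtgGTtCAAAGTCCCgGtGtt
Asgr2, chr11:70092582-70092607: TaTTTActGTcCAAAGTCCCaGgGgc

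Between Mbl1 and Mbl2 the best-matching 26 bases, likewise sought after the windows had been seen, had 24 identical (in capitals). The best match between any Asgr window and any Mbl window was 15 to 18 of 26, so the 18 of the Asgr stretch above did not exceed it. The shared stretches begin 37 bases before the Mbl1 start and 71 bases before the Mbl2 start.
Mbl1, chr14:41151419-41151444: AGTTGcTTATTAAaCTGGGGTTGAAG
Mbl2, chr19:30232857-30232882: AGTTGtTTATTAAtCTGGGGTTGAAG
Beside this shared stretch, Mbl2 had a log2 change of -5.50 and Mbl1 one of -0.58.

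Chromosomal neighbours had unlike values. Asgr1 and Asgr2 are adjacent on chromosome 11 in the RefSeq table, with no other protein-coding gene between them. They had log2 changes of -5.36 and -1.0. The Asgr2 probe had room to fall of only 1.91 on the log2 scale, against 6.40 for Asgr1, so that limit can affect this contrast. Acadvl, an acyl-CoA dehydrogenase gene beyond Asgr1, had a log2 change of -1.05 (SE 0.33) and the macrophage lectin gene Mgl2 beyond Asgr2 one of -0.34 (SE 0.42), neither past the threshold. The Mgl2 probe was detected on 1 array of each group, and its control mean of 5.84 left little room to fall. Mbl1 lies on chromosome 14 between the surfactant collectin genes Sftpa1 and Sftpd. Mat1a, beyond Sftpa1, had a log2 change of -0.85 (SE 0.62) that did not pass. Sftpd, which encodes surfactant protein D, a collectin best known from the lung, rose 13.4-fold on the background-corrected scale, as 1.75% of all genes were called higher. Its log2 intensities were 7.50 and 7.72 in controls and 11.49 and 11.21 in DKO livers. The log2 change was 3.74 (SE 0.34, limma adjusted p = 0.0034), and 3.60 to 3.88 without single arrays. Its size without background correction is not given here. Sftpd was chosen after its values had been seen. Mbl2 lies on chromosome 19. Of the tested genes near Mbl2, Gldc, Uhrf2 and Prkg1 had log2 changes of -0.52, 0.28 and -0.15 that did not pass.

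**Figure D3:**
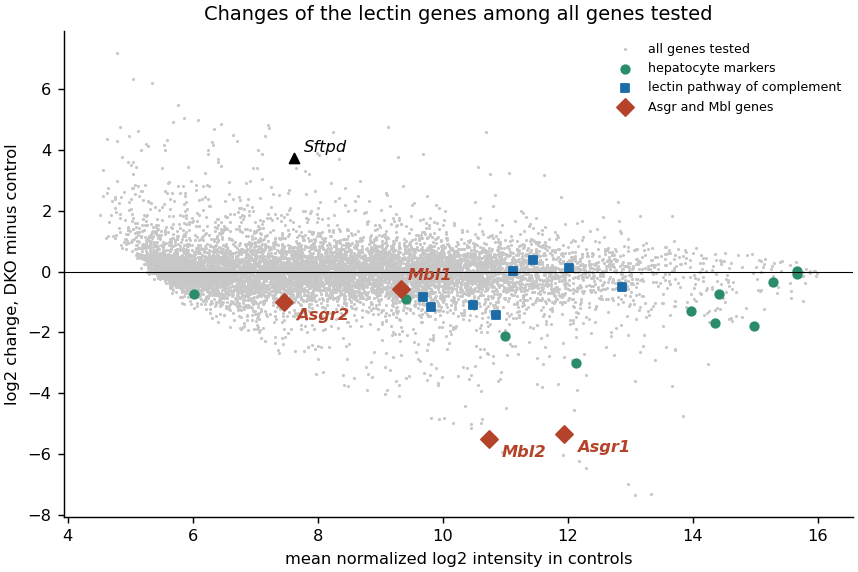
Log2 change, DKO minus control (vertical axis), against the mean normalized log2 intensity in controls (horizontal axis) for all 9502 genes tested (grey), hepatocyte markers (green), lectin pathway genes (blue), Sftpd (black) and the 4 hepatic lectin genes (red). Asgr1 and Mbl2 lie near the lower edge and Asgr2 and Mbl1 within the bulk of the genes.

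Around the mannose-binding lectins, the lectin pathway of complement showed no called change. Of a list of 10 genes 8 were tested and 0 passed by limma (3 at an unadjusted p under 0.05), against 3.43% of all genes in either direction (16.1% unadjusted), and the median log2 change was -0.67 beside 0.005 over all genes. Among the other recognition molecules, the collectin gene Colec10 had a log2 change of -1.09 (SE 0.44), the ficolin gene Fcnb of -0.84 (SE 0.40) and the ficolin gene Fcna of 0.38 (SE 0.37). The protease genes that cleave the next components differed from each other in value, with Masp2 at -1.17 (SE 0.47) and Masp1 at 0.03 (SE 0.34). These values moved with single arrays. Masp2 had a log2 change of -1.82 without control replicate 1 and of -0.52 without control replicate 2. Colec10 ranged from -1.56 to -0.62 over the arrays left out, Fcnb from -1.16 to -0.52 and Fcna from 0.10 to 0.66. Of the proteins cleaved, C4b had -1.44 (SE 0.44), with a near-identical copy, C4a, whose transcripts its probe may share, and C2 had 0.11 (SE 0.35). Serping1, which encodes the C1 inhibitor that also blocks Masp proteases, had -0.50 (SE 0.34). With single arrays left out, Serping1 ranged from -0.70 to -0.30 and C4b from -1.91 to -0.97, and C2 and Masp1 had no fixed sign, at -0.12 to 0.34 and -0.14 to 0.21. Adjusted p-values ran from 0.17 to 0.99. In 5 of the 8 genes both DKO values lay below both control values (22.8% of all genes), and in the other 3 the groups overlapped.

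**Figure D4:**
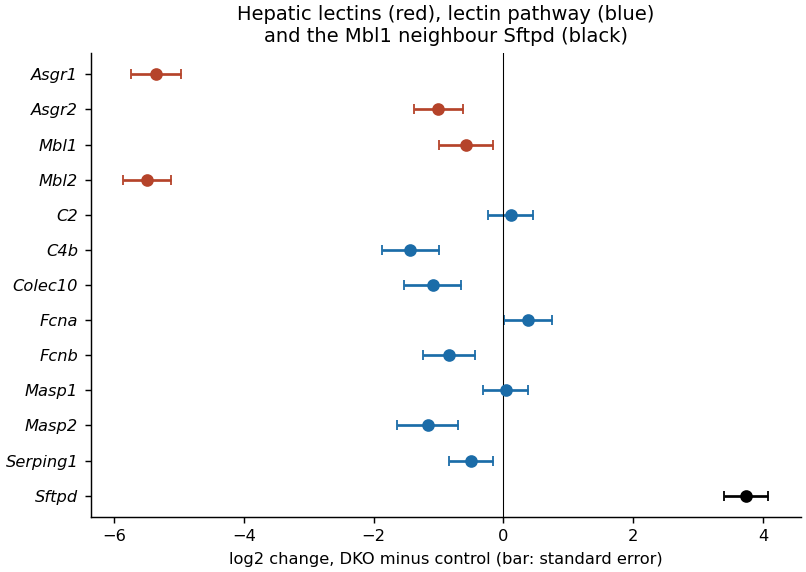
Log2 change, DKO minus control (horizontal axis), with standard errors as bars, for the 4 hepatic lectin genes (red), the 8 tested genes of the lectin pathway of complement (blue) and Sftpd (black). Only Asgr1, Mbl2 and Sftpd passed the threshold among these genes.

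Around the asialoglycoprotein receptor, genes for its uptake machinery, its ligands and the sugars that it reads were examined, to be read against the 1.68% of all genes called lower, 3.43% called in either direction and 16.1% at an unadjusted p under 0.05. Of 15 tested genes of clathrin endocytosis and receptor recycling 0 passed by limma (1 at an unadjusted p under 0.05; median log2 change 0.17), and of 12 genes that add, remove or supply sialic acid and galactose 0 passed (3 unadjusted; median -0.20, range -1.31 to 1.84). Of 8 tested genes of plasma glycoproteins tied to the receptor 1 fell, Fetub, which encodes fetuin-B (log2 change -1.69, SE 0.34, limma adjusted p = 0.048). In this list 3 genes had an unadjusted p under 0.05 by limma, and 7 had negative log2 changes (49.6% of all genes), with a median of -0.38. In 5 both DKO values lay below both controls (22.8% of all genes). Some had control means close to the highest value of the arrays (16.01), so a change in them may be compressed. The call of Fetub was lost on leaving out either control or DKO replicate 2 (log2 changes -1.64, -1.74 and -1.51). Among 8 tested genes of other lectin and scavenger receptors of the liver 0 passed (0 unadjusted; median -0.46, range -0.65 to 0.37). In a list of 8 tested genes for the hydroxylation and folding of collagen-like stems, work also done for collagens, 0 passed by limma (4 unadjusted). All 8 log2 changes were above 0 with a median of 1.17, and in 5 both DKO values lay above both controls beside 22.7% of all genes. These lists were chosen from general knowledge with earlier results of the data known.

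The labelled tissue was checked against cell type markers. Of 11 tested hepatocyte markers 1 fell, Hpd, an enzyme of tyrosine breakdown (log2 change -2.13, SE 0.41; call lost on leaving out either control or DKO replicate 2), and 10 had negative log2 changes (median -0.89, range -3.02 to 0.03). Their summed normalized intensity was 236148 to 255177 in controls and 154610 to 204051 in DKO livers, and all 11 were detected in at least 1 array of each group. Over all genes 1.68% were called lower and 49.6% had a negative log2 change. Several of these markers, such as Ttr and Apoa1 with control means of 15.67 each, read close to the highest value of the arrays (16.01) and dominate the sum, and a change in them may be compressed, so the sizes were not ranked against those of the lectin genes. Of 5 tested biliary markers 3 rose beside 1.75% of all genes, Krt7 (log2 change 5.0, SE 0.51), Krt19 and Cldn4 (the last not called without control replicate 1). Sox9 at 0.84 (SE 0.37) and Krt23 at -0.58 (SE 0.39) did not pass. The summed intensity of the 5 was 903 to 1161 in controls and 3804 to 10867 in DKO livers, and Krt19 was undetected in both controls. In the markers of Kupffer cells, sinusoidal endothelium, stellate cells and erythroid cells (8, 8, 8 and 4 tested) 0 passed by limma. At an unadjusted p under 0.05 there were 0, 1, 0 and 3, with median log2 changes of 0.15, -0.48, -0.25 and -1.01. Over all genes 3.43% were called in either direction and 16.1% had an unadjusted p under 0.05 by limma. All 4 erythroid log2 changes were negative, and in 3 both DKO values lay below both controls (22.8% of all genes). Each marker was detected on at least 1 array of each group except the endothelial gene Kdr, undetected in both DKO livers. Kdr was already near the detection limit in controls, at 5.63 and 5.99 beside lowest detected values of 5.52 and 5.69. The summed erythroid intensity was 131402 to 139555 in controls and 95510 to 99470 in DKO livers. The part of cell composition in the lectin changes was not tested.

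**Figure D5:**
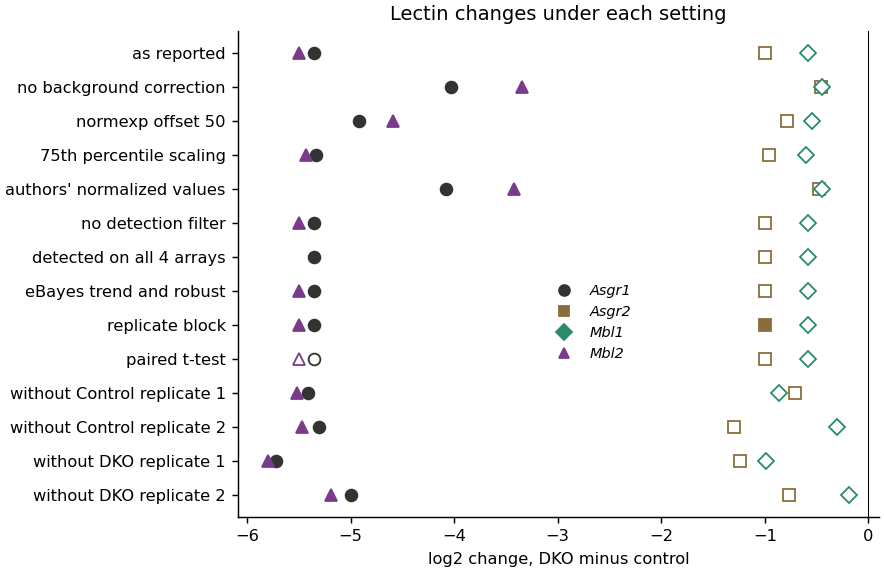
Log2 change, DKO minus control (horizontal axis), of the 4 hepatic lectin genes under the reported and each alternative processing (vertical axis); filled points passed an adjusted p of 0.05, and a point is missing where the probe was not tested. Asgr1 and Mbl2 lie between -3.35 and -5.80 and Asgr2 and Mbl1 between -0.18 and -1.30 under every setting.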

How the data were processed

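The authors deposited linear intensity from Illumina MouseRef-8 v2.0 arrays, before any normalization across arrays, with a detection p-value per probe. A second deposited table holds their normalized intensity, used as an alternative. For arrays their methods give log2 values and a threshold of p under 0.05 and name no test. A paired t-test is named for statistics in general. Scanner processing is not given. Titles gave the groups.

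Here background was corrected by normexp in limma 3.58.1 (R 4.3.3; control levels inferred from detection p-values; offset 16, which pulls dim changes toward 0), then quantile normalization and log2. Tested were 13654 of 25697 probes, those with detection p under 0.05 on 2 or more arrays. DKO was compared with control by lmFit and eBayes, two-sided, without a block, adjusted by Benjamini-Hochberg over tested probes. The brightest tested probe stood for a gene; 23978 probes had 1 symbol. The fit was tested on simulated data. Named were the members, Lats2, lectin pathway genes, called genes of other lists (up to 4), the leading called gene of each cell type and 5 nearest patterns per member. Chromosomal neighbours, Krt19, Cldn4, Sox9, Krt23 and Kdr were added after their values were seen. Members and lists were chosen with earlier results of these data known. Varied were background, offset, scaling, filter, variance model, block, test and each array.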

Additional observations from a re-analysis of the deposited data

How the results depend on the processing

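Asgr1 and Mbl2 were called lower under every alternative tested except a paired t-test, which the methods name for statistics in general and not for the arrays. By that test the adjusted p was 0.49 for both. The unadjusted p was 0.049 and 0.038, under the 0.05 that the methods give for arrays. The log2 changes were unchanged at -5.36 and -5.50. With every probe tested, the limma adjusted p of both was 0.0497, just under the threshold. Mbl2 was not tested among probes detected on all 4 arrays. The size of the falls depended on the background step, at -4.03 for Asgr1 and -3.35 for Mbl2 without background correction. Leaving out single arrays gave -5.72 to -5.00 for Asgr1, -1.30 to -0.71 for Asgr2, -0.99 to -0.18 for Mbl1 and -5.80 to -5.19 for Mbl2. The titles number the arrays 1 and 2 within each group, whereas another label gives replicate 1 to both controls and 2 to both DKO livers, and neither ties a number to an animal or litter, so a pairing was not assumed. With the titles' replicate number as a block, Asgr2 passed (log2 change -1.0, limma adjusted p = 0.037), Mbl1 did not (adjusted p = 0.32), and the calls for all genes rose to 680 higher and 672 lower. Deviations from the group means of same-numbered arrays correlated at 0.54, a value that 2 arrays per group make equal for both numbers. Against 166 genes called higher and 160 lower, there were 79 and 79 from the authors' normalized values, 63 and 74 when background was left in, 15 and 26 with every probe tested, 91 and 89 with probes detected on all 4 arrays, 1 and 1 by the paired t-test (962 unadjusted), and 64 to 289 and 54 to 252 with single arrays left out. The log2 change of Asgr1 minus that of Asgr2 (-4.35) was -3.61 with the authors' values and -3.58 without background correction. For Mbl1 minus Mbl2 the value (4.91) was 2.97 with the authors' values, 2.90 without background correction and 4.05 with an offset of 50. The Asgr2 probe had little room to fall and Mbl2 was at the detection limit in DKO livers, so that limit can affect both sizes. The cause of these differences between paralogs was not tested. With 2 arrays per group, a median standard error of 0.37 on the log2 scale and no called change below 1.68, the values of Asgr2 and Mbl1 are not evidence of no change.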
